A study of Rattus norvegicus with 6 samples.

Results

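The 6 genes described here encode NMDA receptor subunits, and they were followed in cultured rat retinal ganglion cells (RGCs, the neurons whose axons leave the eye) given an astrocyte-derived protein. They were Grin1, Grin2a, Grin2b, Grin2c, Grin2d and Grin3a, out of 14217 genes named on the array. All probe sets whose gene symbol in the platform annotation was one of these 6 were taken, without regard to their values. This gave 11 of 31042 probe sets. Each probe set sums up several short probes against the same transcript. Grin2a had 3 probe sets, Grin1, Grin2b and Grin2d had 2 each, and Grin2c and Grin3a had 1 each.

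NMDA receptors are ion channels opened by glutamate that need a second agonist, glycine or D-serine, and a depolarised membrane, since magnesium blocks the pore at rest. A working receptor holds the obligatory GluN1 subunit, encoded by Grin1, with GluN2 or GluN3 subunits that set its kinetics, calcium entry and magnesium block. A synapse that carries NMDA but no AMPA receptors is silent at rest, and in many brain regions GluN2B is joined or replaced by GluN2A as synapses mature. The study set 2 astrocyte proteins against each other. Glypican 4 (Gpc4) is known for inducing active synapses that contain AMPA receptors, and thrombospondin 1 (TSP1) for inducing synapses that are silent.

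The RGCs came from rat retinas of postnatal day 6, according to the labels, and were purified by immunopanning. They were kept for 12 days in a growth medium that held BDNF, CNTF and forskolin in all 3 groups. One group had nothing added (Alone), another had Gpc4 protein added to the medium for 12 hours, and the last had TSP1 added for 12 hours. The Gpc4 was a tagged protein that HEK293 cells (a line from human embryonic kidney) had secreted, and the TSP1 was a recombinant protein.

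Each group had 2 arrays, replicate 1 and replicate 2, which came from 2 separate RGC cultures, and each array carried pooled wells. The values are log2 RMA expression values. Array medians lay between 5.96 and 5.99. Precision is limited by how few arrays there were. In such bulk RNA fewer cells of a type and less RNA per cell cannot be told apart. The labelled cell type was checked first. Of 9 RGC markers, 8 were measured, their mean log2 value lay between 11.60 and 11.70 on the 6 arrays, and none was below the array medians. These levels do not show that other cells were absent. Below the array medians on all arrays were 3 of 6 amacrine, 1 of 2 bipolar and 2 of 2 photoreceptor markers. The same held for 5 of 6 astrocyte, 2 of 4 Muller glia and 3 of 5 microglia markers. It held for 1 of 3 oligodendrocyte lineage, 2 of 3 endothelial and 0 of 5 fibroblast markers. Of 36 measured markers of 9 other retinal and connective tissue cell types, 0 passed the limma test described below in any comparison. With the replicate block, 2 of 5 fibroblast markers passed as higher in Gpc4 than in TSP1 (log2 differences of 1.765 for Dcn and 1.945 for Lum). So did 1 of 3 endothelial markers (Kdr, 1.13), beside 0.258% of all probe sets past the threshold in either direction. The remaining fibroblast markers differed by -0.05 to 0.055, and the remaining endothelial markers by -0.015 and 0.115.

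How bright the probe sets were was asked before any comparison. Both Grin1 probe sets lay above the median of their array on all 6 arrays. The Grin2b probe set 1369745_at was above it on 4 arrays and below it on 2, and the other 8 probe sets were below it on every array. The brightness of a probe set depends on its probes as well as on the mRNA, so these positions do not rank the subunits by mRNA amount. The files hold no detection call. For the 8 dim probe sets a difference in log2 signal is therefore not shown to be above background, and it can understate a change in mRNA.

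**Figure D1:**
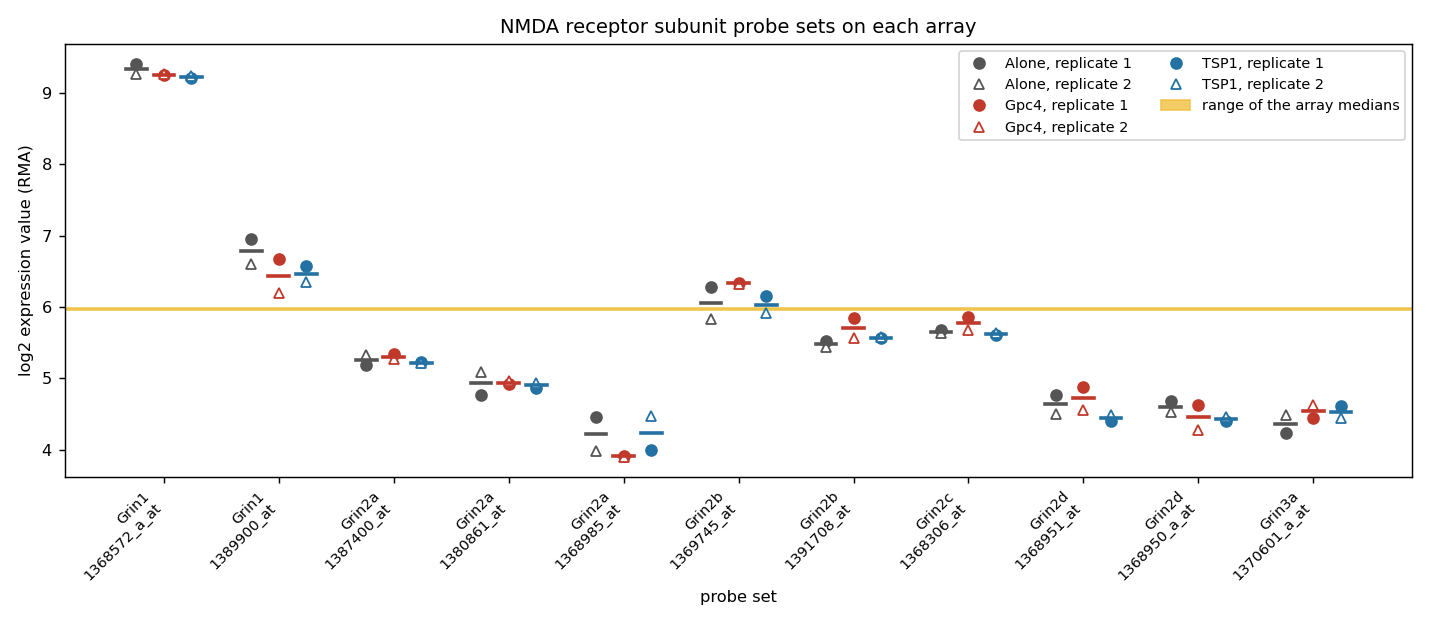
Log2 RMA expression value of each of the 11 probe sets (horizontal axis) on each of the 6 arrays, with filled circles for replicate 1, open triangles for replicate 2, short lines for the mean of 2 arrays and a band for the range of the array medians (5.96 to 5.99). Only the Grin1 probe sets sit above the band on all 6 arrays, and the points of Grin2b 1369745_at fall on both sides of it.

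Gpc4 was compared with Alone, TSP1 with Alone, and Gpc4 with TSP1. The test was limma, a linear model on log2 values with a spread shared across probe sets, two-sided, with Benjamini-Hochberg adjustment over all 31042 probe sets and a threshold of 0.05. The comparisons with Alone share the same 2 Alone arrays.

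None of the 11 probe sets passed in any of the 3 comparisons. For Gpc4 against Alone, 0 of 11 passed, beside 0.0838% of all probe sets, and 0 had an unadjusted p under 0.05, beside 6.88% of all. For TSP1 against Alone, 0 of 11 passed where 0% of all probe sets did, and 0 had an unadjusted p under 0.05, beside 4.4% of all. For Gpc4 against TSP1, 0 of 11 passed, beside 0.0612% of all, and 0 had an unadjusted p under 0.05, beside 4.51% of all. The methods' t-test on the same values gave 0 of 11 at an unadjusted p under 0.05 in each comparison. At these background rates, few or no calls among 11 probe sets are what unselected probe sets give, so the counts are not a result about the subunits.

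The sizes of the differences were small. With Gpc4 the log2 differences from Alone ran from -0.345 (Grin1 1389900_at) to 0.275 (Grin2b 1369745_at), with a median of 0.045, beside -0.005 for all probe sets. With TSP1 they ran from -0.32 (Grin1 1389900_at) to 0.165 (Grin3a), with a median of -0.03, beside -0.005. Between Gpc4 and TSP1 they ran from -0.325 (Grin2a 1368985_at) to 0.295 (Grin2b 1369745_at), with a median of 0.035, beside -0.005.

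All 11 of the 95% intervals of this fit, which does not pair the arrays by culture, spanned 0 in each comparison. With that pairing, given below, some intervals left out 0. In the unpaired fit all stayed within a 2-fold difference in signal either way. The widest limits were -0.77 and 0.64 for Gpc4 against Alone, -0.74 and 0.46 for TSP1 against Alone, and -0.77 and 0.66 for Gpc4 against TSP1. Such narrow intervals were common on these arrays, since 99.1%, 99.2% and 99.1% of all probe sets met the same bound. Within 1.5-fold either way lay 8, 10 and 8 of the 11 intervals. A 2-fold difference in signal thus lay outside the interval of each probe set, while a 1.5-fold difference lay inside some.

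**Figure D2:**
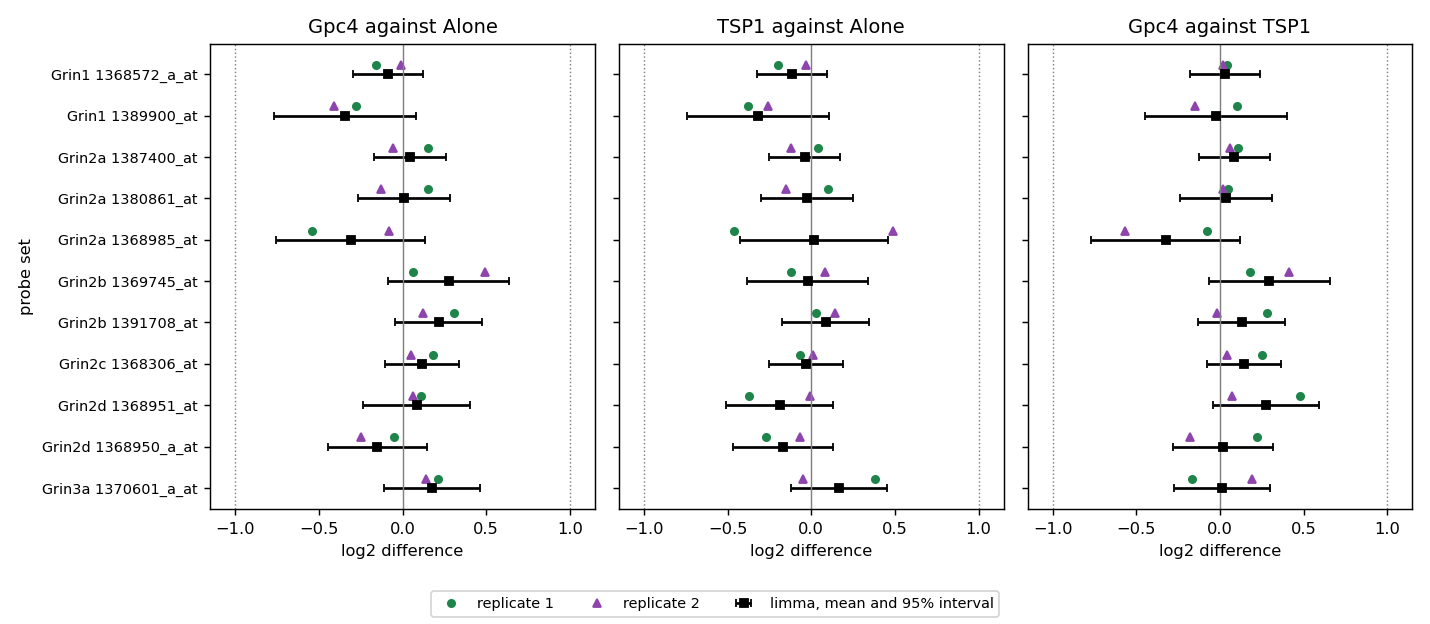
Log2 difference of each probe set in the 3 comparisons, with squares and bars for the limma estimate and its 95% interval, circles and triangles for the differences within culture 1 and culture 2, and dotted lines at a 2-fold difference either way. Every interval of this fit, which does not pair the arrays by culture, crosses 0, and the lowest and highest limits are -0.77 and 0.66.

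Grin1 comes first, since its GluN1 product is part of every NMDA receptor. The brighter probe set, 1368572_a_at, had log2 values of 9.41 and 9.27 in Alone, 9.25 and 9.26 with Gpc4, and 9.21 and 9.24 with TSP1. Both arrays of each treatment lay below both Alone arrays, and the whole range was 0.20. The means were 9.34 ± 0.099 in Alone, 9.255 ± 0.0071 with Gpc4 and 9.225 ± 0.021 with TSP1 (SD, n = 2). The log2 difference from Alone was -0.085 with Gpc4 (interval -0.29 to 0.12, limma adjusted p = 0.899) and -0.115 with TSP1 (interval -0.32 to 0.0945, limma adjusted p = 0.985). The drop of these means was no larger than the difference of 0.14 between the 2 Alone arrays.

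The other Grin1 probe set, 1389900_at, had log2 values of 6.96 and 6.61 in Alone, 6.68 and 6.20 with Gpc4, and 6.58 and 6.35 with TSP1. The Gpc4 arrays overlapped Alone, whereas both TSP1 arrays lay below both Alone arrays. The log2 difference from Alone was -0.345 with Gpc4 (standard error 0.18, interval -0.77 to 0.080, limma adjusted p = 0.767) and -0.32 with TSP1 (interval -0.74 to 0.10, limma adjusted p = 0.985). Within culture 1 and culture 2 the Gpc4 differences were -0.28 and -0.41, and the TSP1 differences were -0.38 and -0.26. The values of this probe set were thus lower with each protein in each culture, and both Grin1 probe sets had negative differences with both proteins. All these differences are taken from the same 2 Alone arrays, so their shared sign is not independent. The Alone array of culture 1 was the highest of the 6 for both probe sets. Gpc4 and TSP1 themselves differed by 0.03 for the first probe set (interval -0.18 to 0.24) and by -0.025 for the second (interval -0.45 to 0.40).

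Grin2b encodes GluN2B, the GluN2 subunit that prevails early in forebrain development and binds CaMKII. Its probe set 1369745_at had log2 values of 6.28 and 5.83 in Alone, 6.34 and 6.32 with Gpc4, and 6.16 and 5.91 with TSP1. Both Gpc4 arrays lay above both Alone and both TSP1 arrays, and TSP1 lay within the range of Alone. The means were 6.055 ± 0.32, 6.33 ± 0.014 and 6.035 ± 0.18 (SD, n = 2) in Alone, Gpc4 and TSP1. The difference of Gpc4 from Alone was 0.275 (standard error 0.16, interval -0.0865 to 0.64, limma adjusted p = 0.780), made of 0.06 in culture 1 and 0.49 in culture 2. It was smaller than the 0.45 that separated the 2 Alone arrays. TSP1 differed from Alone by -0.02 (interval -0.38 to 0.34), and Gpc4 from TSP1 by 0.295 (interval -0.0665 to 0.66).

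The second Grin2b probe set, 1391708_at, was dimmer, with log2 values of 5.53 and 5.44 in Alone, 5.84 and 5.56 with Gpc4, and 5.56 and 5.58 with TSP1. Both treatments lay above Alone, and the Gpc4 and TSP1 arrays overlapped. The log2 difference from Alone was 0.215 with Gpc4 (interval -0.0446 to 0.47, limma adjusted p = 0.765) and 0.085 with TSP1 (interval -0.17 to 0.34). The 2 probe sets therefore had the same sign with Gpc4 and opposite signs with TSP1.

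Grin2a encodes GluN2A, which gives receptors faster decay and joins synapses later. The log2 values of 1387400_at were 5.19 and 5.33 in Alone, 5.34 and 5.27 with Gpc4, and 5.23 and 5.21 with TSP1. Those of 1380861_at were 4.77 and 5.09 in Alone, 4.92 and 4.96 with Gpc4, and 4.87 and 4.94 with TSP1. In both, the Alone arrays spanned most or all of the other values, and the differences from Alone lay between -0.04 and 0.045 (lowest interval limit -0.30, highest 0.28).

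The dimmest Grin2a probe set, 1368985_at, was less steady, with log2 values of 4.46 and 3.98 in Alone, 3.92 and 3.90 with Gpc4, and 4.00 and 4.47 with TSP1. Both Gpc4 arrays were below all others, while Alone and TSP1 overlapped. Its Gpc4 difference from Alone was -0.31 (interval -0.75 to 0.13, limma adjusted p = 0.796), and its sign was opposite to that of the other Grin2a probe sets in both comparisons with Alone. The TSP1 difference was -0.46 in culture 1 and 0.49 in culture 2, with a mean of 0.015.

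Because GluN2B and GluN2A can replace each other, the log2 difference between Grin2a and Grin2b within an array was followed, using the brightest probe set of each. Its size carries probe effects and only its shifts between groups can be read. Grin2a minus Grin2b was -1.09 and -0.50 in Alone, -1.0 and -1.05 with Gpc4, and -0.93 and -0.70 with TSP1. The Gpc4 and TSP1 arrays all fell between the 2 Alone arrays. The mean shifted by -0.23 with Gpc4 and by -0.02 with TSP1, against an SD of 0.42 in Alone (n = 2). The arrangement changed with the mean over all probe sets of each gene. Grin2a minus Grin2b was then -1.10 and -0.835 in Alone, -1.36 and -1.23 with Gpc4, and -1.16 and -0.872 with TSP1. Both Gpc4 arrays lay below the other 4, in each culture, while TSP1 overlapped Alone. The shift was -0.33 with Gpc4 and -0.0492 with TSP1, against an SD of 0.19 in Alone (n = 2). This mean takes in the dimmest Grin2a probe set, 1368985_at, whose Gpc4 difference from Alone was -0.31. The other Grin2a probe sets differed by 0.045 and 0.01. A mean without 1368985_at was not computed, so the separation of the Gpc4 arrays may rest on that probe set. The values are given as a description. An exact permutation test of 2 against 2 arrays cannot go below p = 0.333.

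Grin2c encodes GluN2C and Grin2d GluN2D, subunits with weak magnesium block. Grin2c (1368306_at) had log2 values of 5.68 and 5.63 in Alone, 5.86 and 5.68 with Gpc4, and 5.61 and 5.64 with TSP1. One Gpc4 array stood above the rest and the other equalled an Alone array. The difference from Alone was 0.115 with Gpc4 (interval -0.11 to 0.34) and -0.03 with TSP1 (interval -0.25 to 0.19).

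For Grin2d the probe set 1368951_at had log2 values of 4.77 and 4.50 in Alone, 4.88 and 4.56 with Gpc4, and 4.40 and 4.49 with TSP1. Its other probe set, 1368950_a_at, had 4.68 and 4.53 in Alone, 4.63 and 4.28 with Gpc4, and 4.41 and 4.46 with TSP1. Both TSP1 arrays lay below both Alone arrays in each, whereas Gpc4 overlapped Alone in each. The TSP1 differences from Alone were -0.19 (interval -0.51 to 0.13) and -0.17 (interval -0.47 to 0.13). The Gpc4 differences had opposite signs in the 2 probe sets, at 0.085 (interval -0.23 to 0.40) and -0.15 (interval -0.45 to 0.15).

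Grin3a encodes GluN3A, which binds glycine and lowers the calcium permeability of receptors that hold it. Its probe set 1370601_a_at had log2 values of 4.24 and 4.49 in Alone, 4.45 and 4.63 with Gpc4, and 4.62 and 4.44 with TSP1. The lowest value was an Alone array, and the other Alone array lay between the 2 arrays of each treatment. The differences from Alone were 0.175 with Gpc4 (interval -0.11 to 0.46) and 0.165 with TSP1 (interval -0.12 to 0.45). Gpc4 and TSP1 differed by 0.01 (interval -0.28 to 0.30).

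Groups that do not overlap were counted next. With Gpc4 both arrays were above both Alone arrays for 2 of 11 probe sets, beside 16% of all probe sets, and below for 2, beside 18.9%. With TSP1 they were above for 1, beside 14.3%, and below for 4 (both Grin1 and both Grin2d probe sets), beside 15.6%. The Gpc4 arrays were above both TSP1 arrays for 5 of 11, beside 14.6%, and below for 1, beside 15.5%. The 4 with TSP1 are 2 probe sets each of 2 genes, which measure the same RNA and are not independent. The 5 were Grin1 1368572_a_at, Grin2a 1387400_at, Grin2b 1369745_at, Grin2c and Grin2d 1368951_at, which all rest on the same arrays. The other probe sets of Grin1, Grin2b and Grin2d overlapped. Of the other Grin2a probe sets, 1380861_at overlapped and 1368985_at was the 1 below.

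The cultures were then set against each other, with the groups as terms in limma. None of 11 passed, beside 0.561% of all probe sets, and 2 had an unadjusted p under 0.05, beside 11.3% of all. These were Grin1 1389900_at, with a log2 difference of culture 2 minus culture 1 of -0.35 (interval -0.53 to -0.17, limma adjusted p = 0.160), and Grin2b 1369745_at, with -0.24 (interval -0.46 to -0.0225, limma adjusted p = 0.401). The Grin1 probe set was lower in culture 2 in each group, by log2 differences of -0.35, -0.48 and -0.23 in Alone, Gpc4 and TSP1. Its culture difference was thus as large as its difference between treated and untreated cells. Of the 11 probe sets 8 were lower and 3 higher in culture 2. The arrays of a group differed by a median of 0.25 (Alone), 0.18 (Gpc4) and 0.07 (TSP1) over these probe sets, beside 0.11, 0.10 and 0.11 over all.

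Markers of other cells moved with culture too. The mean log2 value of 5 fibroblast markers was higher in culture 2 by 0.70 to 1.45 in the 3 groups. It ranged from 5.77 to 7.22 in Alone, 6.17 to 6.87 with Gpc4 and 5.26 to 6.30 with TSP1, and 0 of the 5 lay below the array medians on all arrays. The mean of 5 microglia markers was lower in culture 2, by log2 differences of -0.47 to -0.22, with ranges of 5.04 to 5.51, 5.17 to 5.38 and 5.08 to 5.50 in Alone, Gpc4 and TSP1. The part of these cells in the subunit values was not tested.

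**Figure D3:**
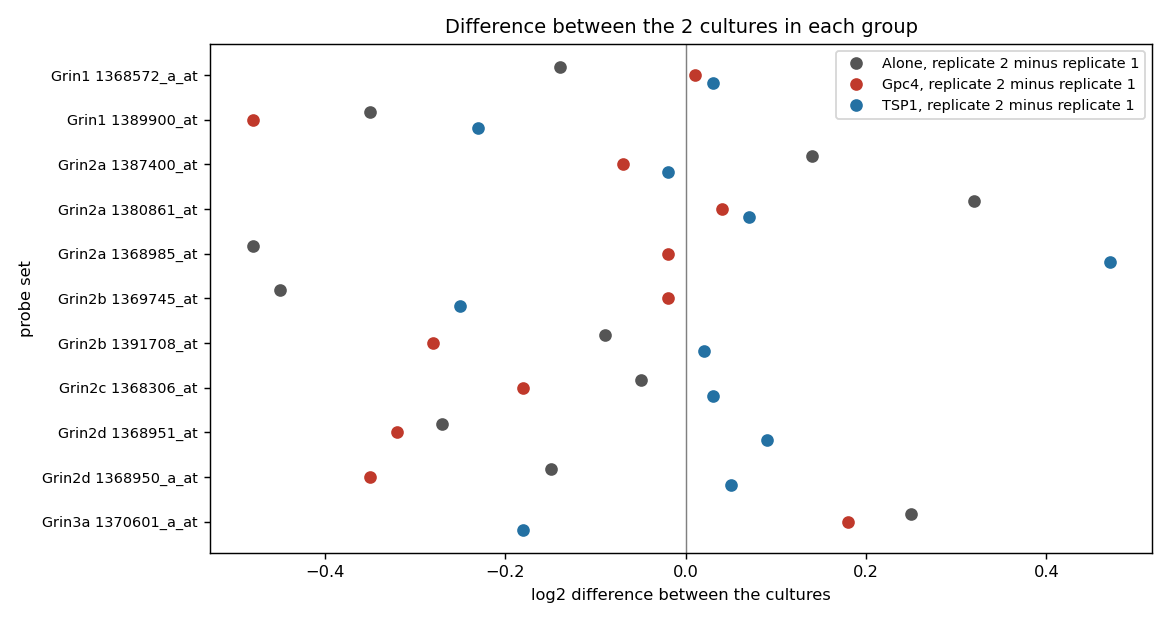
Log2 value in culture 2 minus that in culture 1 for each probe set (vertical axis), with 1 point for each group. The points of Grin1 1389900_at lie left of 0 in all 3 groups (-0.35, -0.48 and -0.23), while Grin2a 1368985_at runs from -0.48 in Alone to 0.47 with TSP1.

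Taking the culture difference out, with the replicate number as a block in limma, left every subunit below the threshold. For Gpc4 against Alone 0 of 11 passed (lowest adjusted p = 0.352), beside 0.206% of all probe sets, and 2 had an unadjusted p under 0.05, beside 9.44%. These were Grin1 1389900_at, with a blocked interval of -0.57 to -0.12, and Grin2b 1369745_at, with 0.0086 to 0.54. For TSP1 against Alone 0 passed (lowest adjusted p = 0.669), beside 0.0129%, and 1 had an unadjusted p under 0.05, beside 6.69%, again Grin1 1389900_at (blocked interval -0.54 to -0.0974). For Gpc4 against TSP1 0 passed (lowest adjusted p = 0.711), beside 0.258%, and 2 had an unadjusted p under 0.05, beside 6.62%, namely Grin2b 1369745_at and Grin2d 1368951_at. These counts are 1 or 2 of 11 probe sets and are given as a description.

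The rest of the pathway was taken from lists of genes, with the brightest probe set of each gene. Of 144 listed genes 134 were measured. By limma 0 of 134 passed in each comparison. An unadjusted limma p under 0.05 was found for 25 (18.7%) with Gpc4 and 4 (2.99%) with TSP1, each relative to Alone. Between Gpc4 and TSP1 it was found for 13 (9.70%). The background rates given above cover all probe sets, dim and unnamed ones included, while these genes enter by their brightest probe set. A rate for the brightest probe sets of all named genes is not given. Whether the listed genes differ from other genes in this respect was therefore not tested. With the block 3, 0 and 3 passed, and the methods' t-test with Benjamini-Hochberg gave 0 in each.

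The other ionotropic glutamate receptors had small differences as well. The 4 AMPA receptor subunits had a median log2 difference of -0.0525 with Gpc4 and -0.045 with TSP1, beside -0.01 and -0.005 over all named genes, and 0 passed by limma with or without the block. Gria2, whose product makes AMPA receptors impermeable to calcium, differed by -0.25 with Gpc4 (limma adjusted p = 0.715), and Gria3 by -0.12. The 5 kainate receptor subunits had medians of -0.005 and 0.025, with 0 past the threshold. Grik5 differed by -0.215 and Grik2 by -0.195 with Gpc4.

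Scaffolds such as the PSD-95 family hold NMDA receptors at the postsynaptic density. Over 30 measured scaffold and adaptor genes of 32 the median was -0.015 with Gpc4 and 0.0125 with TSP1, and 0 passed by limma with or without the block. The 2 largest Gpc4 differences of the same sign in both cultures were -0.36 for Lin7a, a PDZ-domain adaptor, and -0.345 for Dlgap4, a PSD-95 binding protein (limma adjusted p = 0.500 and 0.522). Kinases, phosphatases and calcium effectors act on the receptor or downstream of its calcium. Over 30 measured of 33 the medians were -0.0175 and -0.015, with 0 past the threshold, and the CaMKII subunits Camk2g and Camk2a differed by -0.325 and -0.275 with Gpc4 (limma adjusted p = 0.649 and 0.724).

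Genes that make or clear the agonists included Glul, which encodes glutamine synthetase, and Phgdh, which encodes the first enzyme of serine synthesis. Glul was also among the markers of Muller glia, a retinal cell type, and the part of such cells in its value was not tested. With Gpc4 Glul differed by 0.395 and Phgdh by -0.395 (limma adjusted p = 0.558 and 0.698), while 24 measured genes of 26 had a median of 0.025 with Gpc4 and 0.01 with TSP1 and 0 passed. Transcription and RNA factors named for NMDA receptor genes had medians of 0.055 and 0.04 over 21 of 22, with 0 past the threshold. Of these Fmr1, which encodes an RNA-binding protein that represses translation, differed by 0.39 with Gpc4 and 0.46 with TSP1 (limma adjusted p = 0.648 and 0.985), and Creb1 by 0.19 with Gpc4.

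Genes listed as calcium and CREB targets downstream of NMDA receptors had the widest spread of the lists. Whether NMDA receptors, calcium or CREB acted on them here was not tested. The list includes Nptx1. The paper contrasts the Nptx1 product, NP1, with NP2, whose mRNA it calls regulated by neuronal activity. Over 21 measured of 23 the median log2 difference was 0.11 with Gpc4 and -0.025 with TSP1. By limma 11 of 21 with Gpc4 (beside 6.88% of all probe sets) and 1 of 21 with TSP1 (beside 4.4%) had an unadjusted p under 0.05. Of the 11 with Gpc4, Bdnf (-0.215), Inhba (-0.42) and Atf3 (-1.005) were lower and the rest higher. The list was chosen with earlier results of these data known, and the paper had reported Nptx1 as raised by Gpc4 on these arrays. The count is therefore a description and not a test. The percentages beside it also cover dim and unnamed probe sets, so they come from an unlike set. None of the 21 passed by limma without the block. With the block Dusp1 and Nptx1 rose and Atf3 fell with Gpc4.

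Dusp1, which encodes a phosphatase of MAP kinases, had log2 values of 10.17 and 10.60 in Alone, 11.34 and 11.48 with Gpc4, and 10.07 and 10.55 with TSP1. Its difference of Gpc4 from Alone was 1.03 (limma adjusted p = 0.232, and adjusted p = 0.0185 with the block). Nptx1, which encodes neuronal pentraxin 1, a secreted protein that clusters AMPA receptors, had 11.32 and 11.29 in Alone, 12.18 and 12.19 with Gpc4, and 11.40 and 11.05 with TSP1. It differed by 0.88 (limma adjusted p = 0.0792, and adjusted p = 0.0332 with the block). In both genes the Gpc4 arrays lay above the other 4.

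Atf3, a stress-induced transcription factor, had 9.02 and 9.35 in Alone, 8.20 and 8.16 with Gpc4, and 9.03 and 9.27 with TSP1. Its difference was -1.005 (limma adjusted p = 0.0682, and adjusted p = 0.0222 with the block), with both Gpc4 arrays below the other 4. With the block the 3 genes also passed in Gpc4 against TSP1, at log2 differences of 1.10 for Dusp1, 0.96 for Nptx1 and -0.97 for Atf3 (limma adjusted p = 0.0100, 0.0214 and 0.0200).

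**Figure D4:**
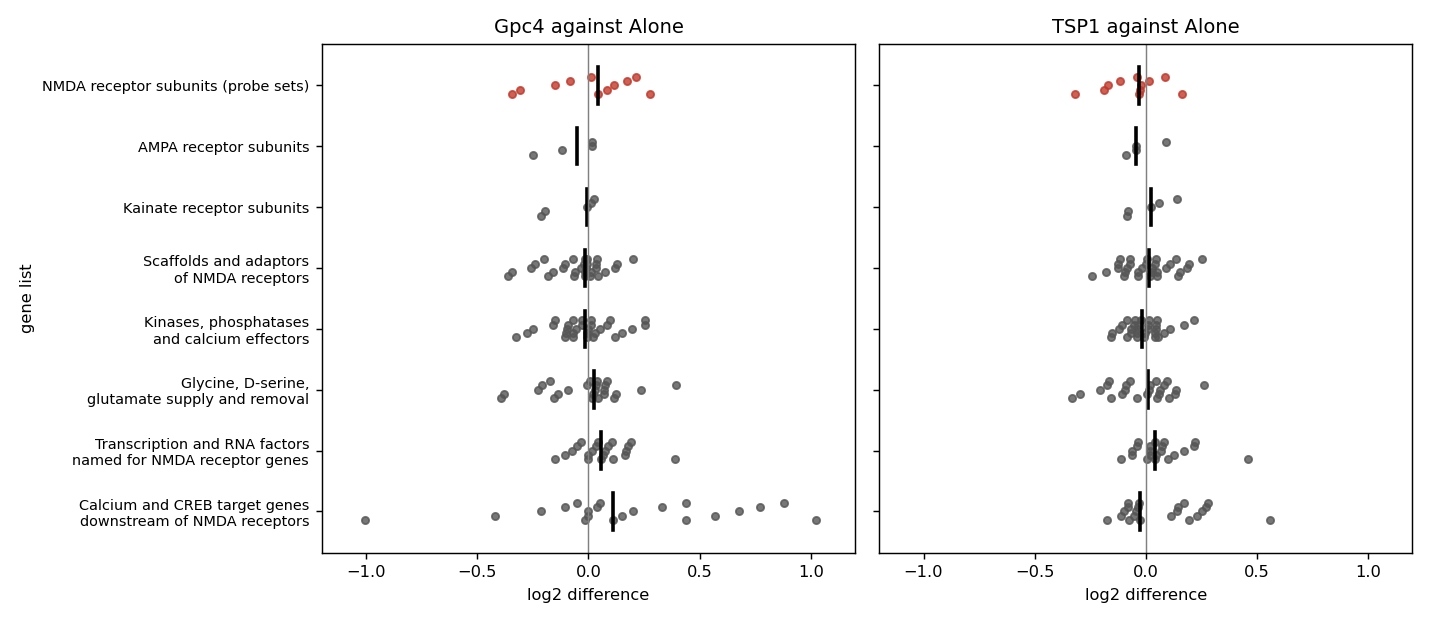
Log2 difference from Alone with Gpc4 (left) and TSP1 (right), with 1 point for each of the 11 subunit probe sets (top) or each gene of the 7 pathway lists, and a bar at the median of each list. The subunit points lie between -0.345 and 0.275, while the genes listed as calcium and CREB targets reach from -1.005 to 1.03 with Gpc4.

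Other genes were ranked by how closely they followed each subunit over the 6 arrays, by Pearson's r, as a description that shares arrays and cultures. Among 9342 or 9343 other genes with a mean log2 value of at least 6, Crat (r = 0.998) and Cgref1 (0.994) were nearest to Grin1, Rps6 (0.981) and Ltc4s (0.9751) to Grin2b, and Erich3 (0.967) and Cabin1 (0.966) to Grin2a. Nearest to Grin2c were Cers5 (0.988) and Bcas3 (0.978), to Grin2d Pdk2 (0.982) and Mxi1 (0.980), and to Grin3a Fndc3a (0.992) and Stk39 (0.991). Each subunit entered by its brightest probe set, and that of Grin2a had a range of only 0.15 over the 6 arrays. Between 27 (Grin2a) and 137 (Grin1) of these genes reached an r of 0.9, so the named genes do not stand alone. Whether they are linked to the subunits was not tested.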

How the data were processed

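The authors made log2 RMA expression values from scanned Affymetrix rat genome arrays and deposited them to 2 decimals. They used Affymetrix Expression Console, whose version is not given in the sources used here. RMA corrects background, normalizes between arrays and summarises the probes of a probe set, so small differences of dim probe sets are compressed. All 6 arrays were used, with no further normalization, filter or pseudocount. Differences were tested in R 4.3.3 by limma 3.58.1 (functions lmFit and eBayes, 1 mean per group, 3 residual degrees of freedom), and figures were drawn with Python 3.11.15. The fit was tested on simulated data, with changes placed only in probe sets of a mean log2 value above 6 and no culture difference. That test therefore does not cover changes in the dim subunit probe sets or arrays that share a culture. Of 31042 probe sets 20826 have 1 symbol in the platform annotation, 436 have several and 9780 have none.

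The subunits, gene lists and markers were chosen with earlier results of these data known. Every subunit probe set was named. Of the other lists, genes past the threshold with or without the block and the 2 with the largest Gpc4 difference of the same sign in both cultures were named. Bdnf and Inhba were named for the direction of their difference. The 2 genes of highest r for each subunit were also named. Arrays with 1 replicate number share a culture, since the methods describe 2 separate cultures, and deviations of same-numbered arrays correlated at 0.29, 0.35 and 0.37 across probe sets in the 3 pairs of groups. As alternatives, arrays were centred on their median or quantile normalized, probe sets were kept from a mean log2 value of 6 up, the replicate number entered as a block (also with that filter), only the compared groups were fitted, the variance was given a trend, the methods' t-test was used (also with Benjamini-Hochberg), probe sets were averaged by gene, and each array was left out in turn.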

Additional observations from a re-analysis of the deposited data

How the results depend on the processing

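Under every alternative tested, 0 subunit probe sets passed in each comparison, the unadjusted t-test included. Averages of a gene's probe sets were computed without a test. The 8 dim probe sets that a mean log2 value of at least 6 removes have no value under that filter. Counts over all probe sets moved more. For Gpc4 against Alone they were 26 as reported, 64 with the replicate block, 90 with the block and the filter, 13 with the 2 groups alone, 49 with a trended variance, 1704 with the methods' t-test unadjusted, 0 with it adjusted, and 2 to 13 with an array left out. For TSP1 against Alone they were 0 as reported, 4 with the replicate block, 8 with block and filter, 1280 with the unadjusted t-test and 0 to 1 with an array left out. For Gpc4 against TSP1 they were 19 as reported, 31 with the filter, 80 with the replicate block, 100 with block and filter, 39 with a trended variance, 1433 and 0 with the t-test unadjusted and adjusted, and 2 to 13 with an array left out. For culture 2 against culture 1 they were 174 as reported, 264 with a trended variance and 0 with any array left out. The pathway genes past the threshold, 0 as reported, were 1 (quantile normalization), 2 (filter), 3 (replicate block, with and without filter), 2 (trended variance) and 15 (unadjusted t-test) for Gpc4 against Alone, 2 (unadjusted t-test) for TSP1 against Alone, and 1 (filter), 3 (replicate block, with and without filter), 2 (trended variance) and 12 (unadjusted t-test) for Gpc4 against TSP1.

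Of 447 recomputed log2 differences of the probe sets 22 changed sign, 20 of these with an array left out, and none of those 22 was over 0.15 in size as reported. Of 12 such averages 4 had another sign than the brightest probe set. These were Grin2a (-0.085) and Grin2d (-0.0325) in Gpc4 against Alone, Grin2b in TSP1 against Alone (0.0325) and Grin2a in Gpc4 against TSP1 (-0.0683). Grin3a in Gpc4 against TSP1 went from 0.01 to -0.005 with median centring and -0.0075 with quantile normalization, and ran from -0.08 to 0.10 with an array left out. With an array left out, Gpc4 against Alone ran from -0.025 to 0.115 (Grin2a 1387400_at), -0.15 to 0.17 (Grin2a 1380861_at), -0.075 to 0.245 (Grin2d 1368951_at) and -0.325 to 0.025 (Grin2d 1368950_a_at). The largest differences kept their sign but ran from -0.585 to -0.105 (Grin1 1389900_at), 0.05 to 0.50 (Grin2b 1369745_at) and -0.55 to -0.07 (Grin2a 1368985_at) for Gpc4 against Alone, -0.495 to -0.145 (Grin1 1389900_at) for TSP1 against Alone, and 0.17 to 0.42 (Grin2b 1369745_at) and -0.56 to -0.09 (Grin2a 1368985_at) for Gpc4 against TSP1. TSP1 against Alone ran from -0.11 to 0.03 (Grin2a 1387400_at), -0.185 to 0.135 (Grin2a 1380861_at), -0.225 to 0.255 (Grin2a 1368985_at) and -0.245 to 0.205 (Grin2b 1369745_at). Gpc4 against TSP1 ran from -0.265 to 0.215 (Grin1 1389900_at), -0.01 to 0.27 (Grin2b 1391708_at) and -0.155 to 0.195 (Grin2d 1368950_a_at). The cause was not tested.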
